A study of Homo sapiens with 6 samples.

Results

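The RNA of 45 human nuclear receptor genes was followed in TC28a2 cells treated with mocetinostat or with its solvent. The 45 genes were chosen by their gene symbol from a list of the superfamily, and while this rule uses no measured value, the family itself was picked with earlier results of these data known. They are 45 of the 60623 genes in the table of counts. TC28a2 cells are human chondrocytes immortalized for culture, and mocetinostat is an inhibitor of the class I histone deacetylases (HDACs). Each condition had 3 samples, described in the study as independent experiments, which received 2 μM of the drug or DMSO alone over 24 hours before total RNA was sequenced with ribosomal RNA depleted. The comparison asks which genes this drug regulates in a chondrocyte cell line. All 6 samples came from this line, so that a single line in culture stands for the cell type.

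Nuclear receptors are transcription factors with a zinc-finger DNA-binding domain and a pocket that, in many members, holds a small lipophilic ligand such as a steroid, a retinoid, thyroid hormone, vitamin D, a fatty acid, or an oxysterol. Steroid receptors act mostly as homodimers, while the receptors for retinoic acid, thyroid hormone, and vitamin D, the PPARs, and the LXRs pair with a retinoid X receptor (RXR). Without ligand, several of them recruit corepressors such as NCOR1, which carries the deacetylase HDAC3, and with ligand they exchange these for coactivators such as the NCOA proteins, CREBBP, and EP300. In cartilage, thyroid hormone, retinoids, glucocorticoids, and vitamin D are known regulators of chondrocyte growth and maturation, and REV-ERBs and RORs are parts of the circadian clock of chondrocytes.

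Total counts were between 1619344 and 11031132 per sample, and the mocetinostat-treated samples were the shallower ones, from 1619344 to 5089542 against 4873426 to 11031132. The tests covered 13966 genes that passed a filter on low counts. Of 17 chondrocyte marker genes, 10 were tested and 6 were called upregulated, where 20.2% of all genes tested were called upregulated. Of the 6, *SOX5* and *COMP* passed the filter only through the mocetinostat-treated samples and so had to differ. The other 4 were *COL2A1*, *ACAN*, *COL11A2*, and *MATN3*, with log2 fold changes of 3.70, 2.75, 1.54, and 1.59. The summed level of the 17 genes went from between 127 and 148 CPM (TMM-normalized counts, scaled to a common library size) to between 275 and 316 CPM. *SOX9* was the highest of these markers, whereas *CNMD* held 0 counts in every sample. *SOX6*, *COL9A1*, *COL11A1*, *MATN1*, *MATN4*, and *PRG4* held too few counts to be tested. Several defining cartilage genes were therefore absent from this line or too scarce to be tested. Of 9 hepatocyte markers 2 were tested and *SERPINA1* was called upregulated, with *APOA2* and *TTR* at 0 counts. The summed level of the 9 went from 2.78 to 8.47 CPM up to 10.3 to 11.8 CPM. Of 7 adipocyte markers 2 were tested and *FABP4* was called upregulated, with *LEP* at 0 counts. The summed level of the 7 went from 6.43 to 7.23 CPM up to 22.7 to 29.6 CPM, and *FABP4* itself from a mean of 0.0598 to 19.6 CPM. *SERPINA1* and *FABP4* passed the filter only through the mocetinostat-treated samples and so had to differ. The part of these markers in the receptor values was not tested.

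Mocetinostat raised the RNA of 12 nuclear receptors, and all of them were scarce in DMSO-treated cells. They were the mineralocorticoid receptor *NR3C2*, the estrogen receptors *ESR1* and *ESR2*, the retinoic acid receptor *RARB*, the thyroid hormone receptor *THRB*, the orphan receptors *RORA* and *RORB*, the early-response receptors *NR4A2* and *NR4A3*, and *NR2E1*, *NR5A2*, and *NR6A1*, which act mainly in neural, endodermal, and germ cells. The glucocorticoid receptor *NR3C1* was the only receptor called downregulated. The receptors that were abundant under DMSO, such as *NR2F2*, *NR2F6*, *NR1H2*, *PPARD*, *RARA*, and *VDR*, had fold changes under 2 in either direction.

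A gene was called when the Benjamini-Hochberg adjusted p of edgeR's quasi-likelihood test, taken over all genes tested, was under 0.05 and the log2 fold change was beyond 1 in either direction. Of the 45 receptors, 33 were tested, of which 12 were called upregulated and 1 was called downregulated. Over all genes tested, 20.2% were called upregulated and 8.18% downregulated. Without the minimum fold, 18 receptors were higher and 7 lower at an adjusted p under 0.05, and 8 were neither, where the shares over all genes were 32.9% higher and 31.4% lower. The median log2 fold change was 0.59 over the 33 receptors and -0.0021 over all genes tested. In 19 receptors every mocetinostat-treated sample was above every DMSO-treated sample and in 8 it was below, and over all genes these shares were 33.7% and 32.8%. However, 9 of the 33 receptors, and 1030 of the 13966 genes, passed the filter only through the mocetinostat-treated samples. These had to be higher, so that the numbers of higher receptors and the median are no result about the family.

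The upregulated receptors were among those of low level. Among the 13 receptors with a mean under 10 CPM over the 6 samples, 11 were called upregulated and 0 downregulated, and 0 were lower at an unadjusted p under 0.05 in edgeR's test, where 40.1% and 6.23% of all genes under this level were called. Among the 20 receptors at 10 CPM or more, *NR6A1* was called upregulated and *NR3C1* downregulated, 6 were higher, 7 lower, and 7 neither at an adjusted p under 0.05, and 13.0% and 8.89% of all genes at this level were called. 9 of the 12 upregulated receptors, with a mean under 1 CPM in DMSO-treated cells, passed the filter only through the mocetinostat-treated samples. A gene that passed in this way had to differ, and 98.8% of all genes that did so were called upregulated, so that their number says nothing about the receptors. The 9 were *NR3C2*, *ESR1*, *ESR2*, *RARB*, *THRB*, *RORB*, *NR4A2*, *NR2E1*, and *NR5A2*. Their lack of overlap, given below, was fixed by the filter. Their adjusted p and their shares within subfamilies, also given below, were partly fixed by it. Of the 24 receptors that passed otherwise, 3 were called upregulated, against 1809 of the 12936 genes that passed otherwise.

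**Figure D1:**
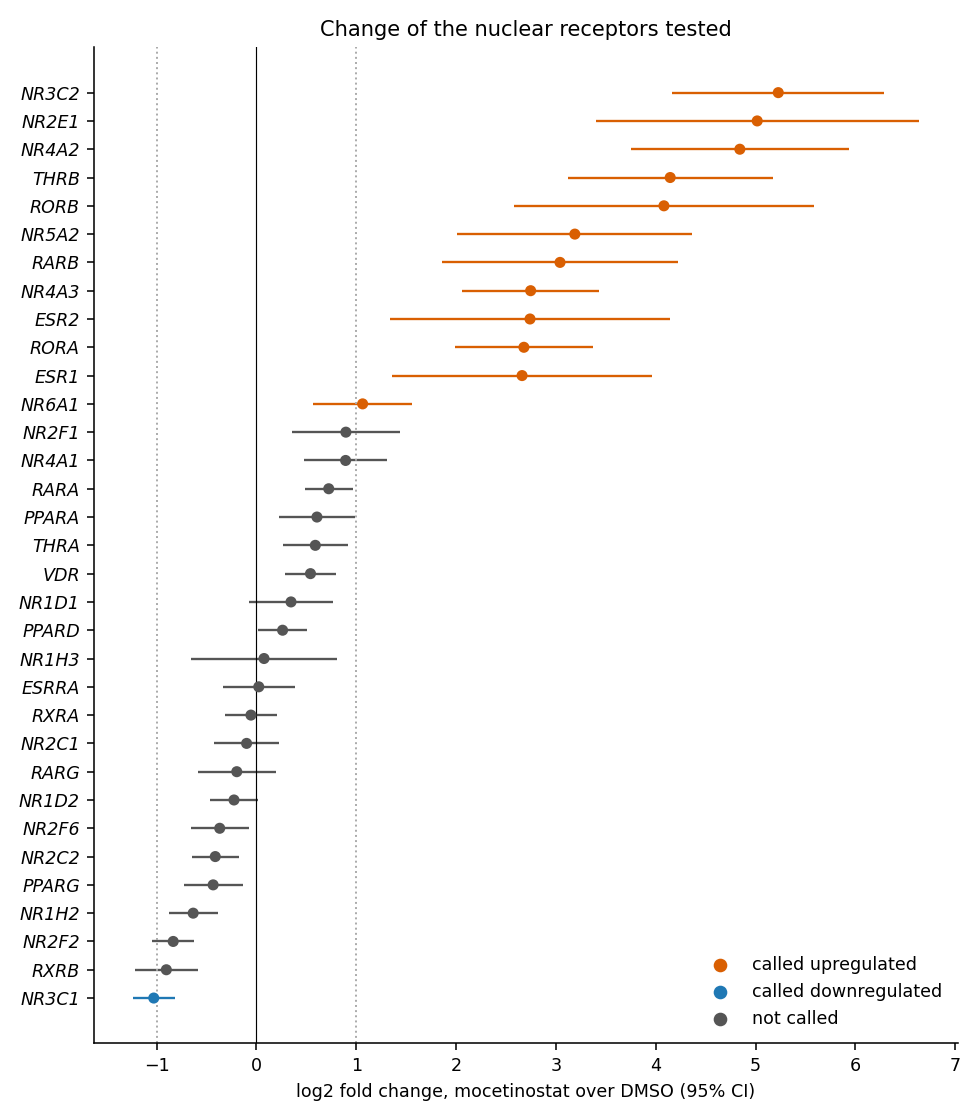
Log2 fold change of the 33 nuclear receptors tested, mocetinostat over DMSO, on the horizontal axis. Points are edgeR estimates from 3 samples per condition, bars are 95% confidence intervals, and dotted lines mark the minimum change of a call. The 12 receptors called upregulated lie between 1.06 and 5.23, and *NR3C1*, called downregulated, lies at -1.03.

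**Figure D2:**
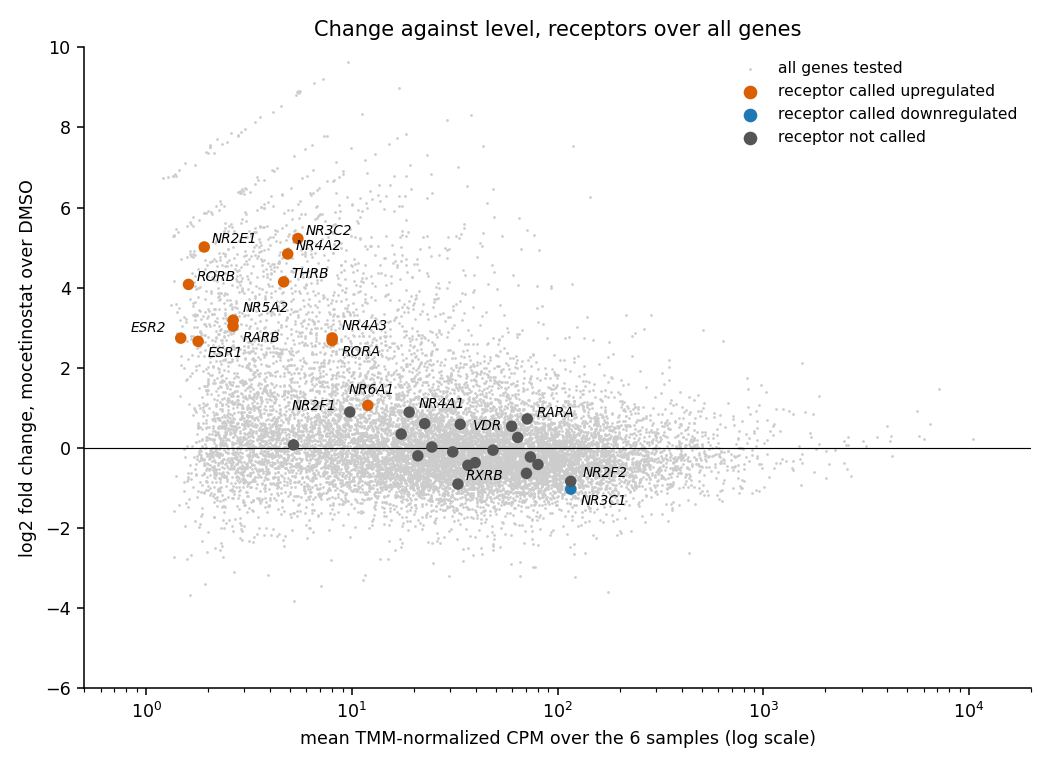
Log2 fold change (vertical axis) against the mean level over the 6 samples in CPM (horizontal axis, log scale) for the 13966 genes tested in gray and the 33 receptors in color. The receptors called upregulated lie at low levels, and the receptors above 10 CPM lie between -0.90 and 0.89, apart from *NR6A1* and *NR3C1*, which were called.

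The summed receptor RNA did not differ beyond the spread between samples. To compare levels between genes, the CPM values were divided by the exon length of each gene in kilobases. The sum of this per-length level over the 45 receptors was 175.9, 176.8, and 187.4 in the DMSO-treated samples and 171.3, 182.8, and 174.4 in the mocetinostat-treated samples, with means of 180.1 ± 6.39 and 176.2 ± 5.96 (SD, n = 3 each). The ranges overlapped, and a two-sided exact permutation test of 3 against 3 samples, which cannot go below p = 0.1, gave p = 0.5. The 12 upregulated receptors held 1.10% of this sum with DMSO and 7.29% with mocetinostat.

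In the order of the per-length level with DMSO, the 10 highest receptors were *NR2F2* (22.9 ± 2.47), *NR3C1* (16.9 ± 0.797), *NR2F6* (16.9 ± 3.04), *NR1H2* (16.0 ± 1.93), *NR1D2* (13.6 ± 2.08), *PPARD* (13.0 ± 1.19), *RARA* (11.3 ± 1.19), *RXRB* (10.9 ± 0.671), *VDR* (8.65 ± 0.970), and *NR2C2* (7.80 ± 0.663). *NR3C1*, *NR2F6*, and *NR1H2* differed by less than their spread, as did *NR1D2* and *PPARD*, and *RARA* and *RXRB*. With mocetinostat *RARA* came first (18.7 ± 1.32), followed by *PPARD* (15.7 ± 0.958), *NR2F6* (13.0 ± 0.656), and *NR2F2* (12.8 ± 0.887), while *NR3C1* stood at 8.35 ± 0.952. Of the 10 receptors that led with DMSO, 6 were lower, 2 higher, and 2 neither at an adjusted p under 0.05. Over all genes tested 31.4% were lower and 32.9% higher. The 10 were ranked by their DMSO level, which is part of the same comparison, so that their direction is no result about the family.

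**Figure D3:**
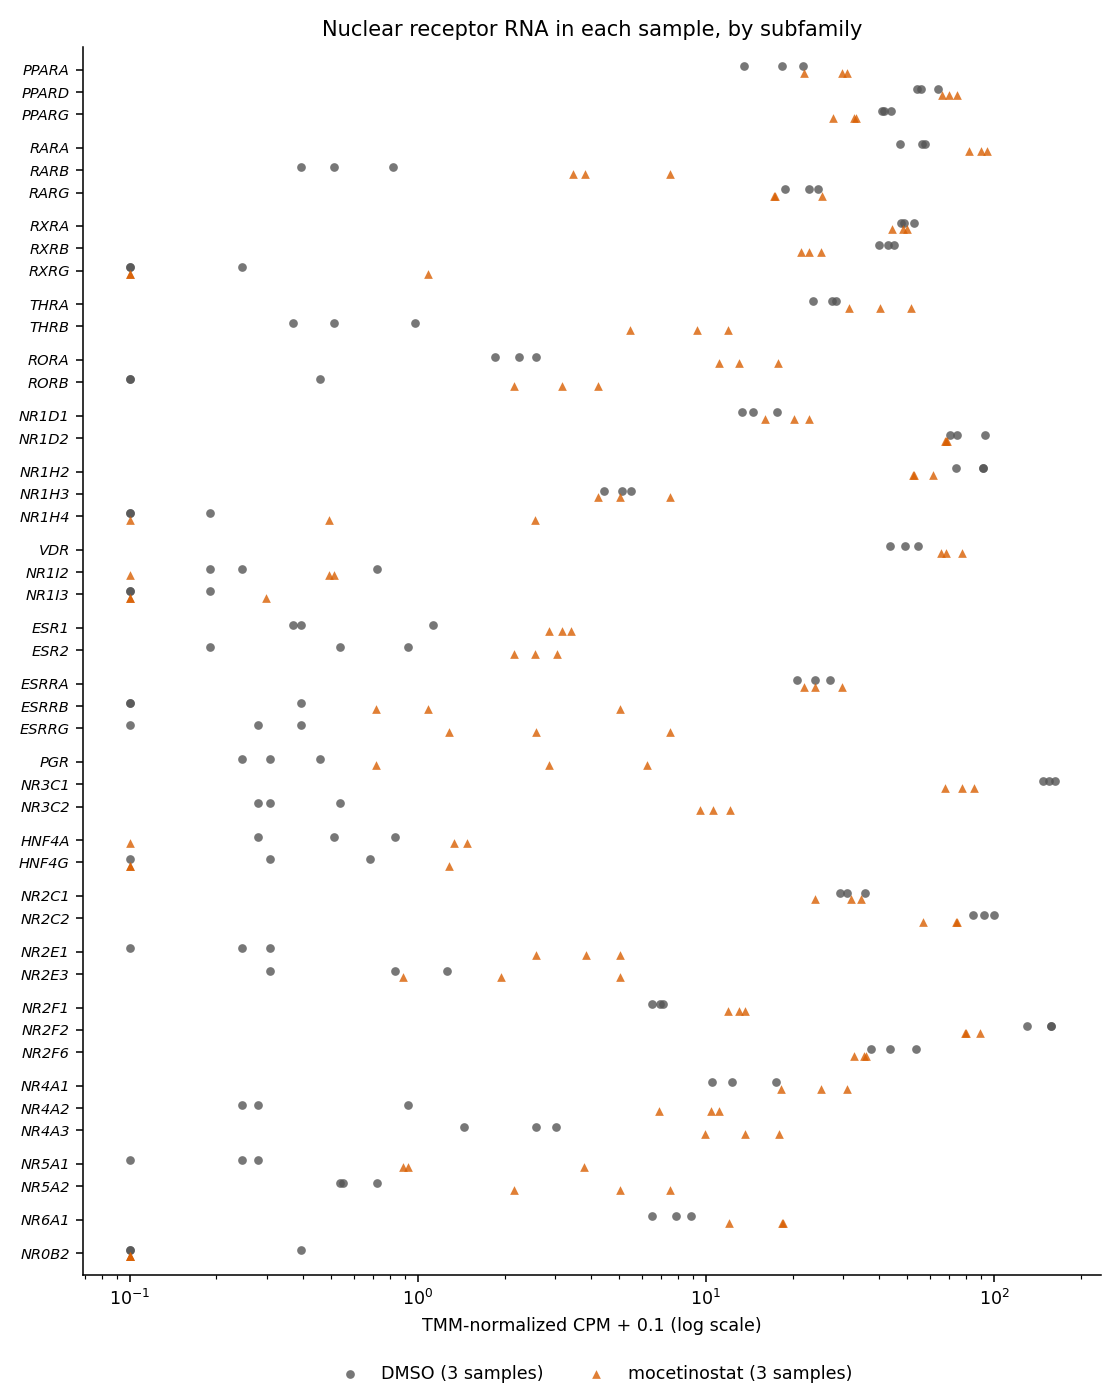
Level of each of the 45 receptors in every sample, in TMM-normalized CPM plus 0.1 on a log axis, grouped by subfamily. Circles are the 3 DMSO-treated samples and triangles the 3 mocetinostat-treated samples, and a point at 0.1 is a sample with 0 counts. The receptors with a mean above 10 CPM over the 6 samples shift by less than 2-fold apart from *NR3C1* and *NR6A1*. The triangles of the 12 upregulated receptors lie to the right of all their circles. For 9 of the 12, which passed the filter only through the mocetinostat-treated samples, this was fixed in advance. Of all genes tested, 33.7% were higher without overlap.

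Among the steroid receptors, *NR3C1* RNA fell while *NR3C2* RNA rose. *NR3C1* encodes the glucocorticoid receptor, and *NR3C2* encodes the mineralocorticoid receptor, which binds aldosterone and also cortisol with high affinity. *NR3C1* (ENSG00000113580, GRCh38 chromosome 5 from 143277931 to 143435512, minus strand) was at 163, 155, and 148 CPM in the DMSO-treated samples and at 77.1, 84.8, and 67.4 CPM in the mocetinostat-treated samples. Every mocetinostat-treated sample was below every DMSO-treated sample, and the log2 fold change was -1.03, with a standard error (SE) of 0.10 and an adjusted p of 7.55e-14. This change lay at the edge of the minimum fold: the log2 fold change was -0.96 without mocetinostat replicate 3, so that the call was lost, and -0.49 with the libraries scaled to *GAPDH*. RNA per cell was not measured in these bulk samples, so that fewer cells expressing a receptor and less RNA per cell cannot be told apart.

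*NR3C2* (ENSG00000151623, chromosome 4 from 148078762 to 148444698, minus strand) had read counts of 2, 1, and 3 with DMSO and of 61, 17, and 23 with mocetinostat. In CPM these were 0.180, 0.207, and 0.439 against 12.0, 10.5, and 9.46, so that the conditions were far apart and the treated samples were close to each other. The ratio of the summed counts per library size was 42.0, with a 95% counting interval from 18.6 to 117, and edgeR gave a log2 fold change of 5.23 (SE 0.53, adjusted p = 7.19e-14). As a share of the per-length RNA of *NR3C1*, *NR3C2*, and the progesterone receptor *PGR*, *NR3C2* went from 0.249% ± 0.140 to 15.8% ± 1.47, and *NR3C1* from 99.7% ± 0.111 to 81.9% ± 2.77 (SD, n = 3). The sum of these 3 receptors with mocetinostat was 0.599 times that with DMSO. *PGR* had read counts of 4, 1, and 1 with DMSO and of 14, 1, and 15 with mocetinostat and was below the filter, with mocetinostat replicate 2 at the level of the controls.

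The estrogen receptors *ESR1* and *ESR2* both rose from counts near the limit of detection. *ESR1* (estrogen receptor alpha) had read counts of 3, 5, and 2 with DMSO and of 14, 5, and 8 with mocetinostat, which were 0.269, 1.03, and 0.292 CPM against 2.75, 3.07, and 3.29 CPM. Its log2 fold change was 2.66 (SE 0.65, adjusted p = 0.000279). *ESR2* (estrogen receptor beta) had read counts of 1, 4, and 3 with DMSO and of 15, 4, and 5 with mocetinostat, and its log2 fold change was 2.74 (SE 0.70, adjusted p = 0.00048). The groups did not overlap in CPM for either gene, but this was fixed by the filter, which both genes passed only through the mocetinostat-treated samples. Single samples rested on as few as 4 and 5 counts. Of the estrogen-related receptors, which bind no known natural hormone and drive genes of energy metabolism, *ESRRA* was the one clearly expressed, at 23.8 ± 3.12 CPM with DMSO and 25.1 ± 3.98 CPM with mocetinostat (SD, n = 3). The 95% interval of its log2 fold change ran from -0.34 to 0.38.

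Within the retinoid receptors, *RARA* and *RARB* were higher, *RXRB* was lower, and *RARG* and *RXRA* did not pass the test. The RARs are the receptors for all-trans retinoic acid, and the RXRs are their obligate partners. *RARA* (ENSG00000131759, chromosome 17 from 40309180 to 40357643, plus strand) was at 47.1, 56.0, and 57.6 CPM with DMSO and 81.8, 89.8, and 94.2 CPM with mocetinostat, with no overlap and a log2 fold change of 0.72 (SE 0.12, adjusted p = 2.76e-07), under the minimum fold. *RARB* (ENSG00000077092) is itself a target of retinoic acid signaling. It had read counts of 8, 2, and 2 with DMSO and of 17, 12, and 9 with mocetinostat, or 0.718, 0.413, and 0.292 against 3.34, 7.38, and 3.70 CPM, with a log2 fold change of 3.04 (SE 0.59, adjusted p = 7.02e-06). *RXRB* (chromosome 6 from 33193588 to 33200665, minus strand) went from 44.9, 39.7, and 42.7 CPM to 21.2, 22.7, and 25.1 CPM, with no overlap and a log2 fold change of -0.90 (SE 0.16, adjusted p = 9.53e-07). The intervals of the remaining members included no change: the log2 fold change of *RXRA* lay between -0.32 and 0.21 and that of *RARG* between -0.59 and 0.19. *RXRG* held at most 5 counts in any sample.

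The shares of the isotypes differed between the conditions, with no overlap for the RARs, *RXRA*, or *RXRB*, although the highest DMSO share of *RARA* (76.7%) was close to the lowest mocetinostat share (76.9%). Of the per-length RAR level, *RARA* made up 72.2% ± 4.09 with DMSO and 81.1% ± 3.77 with mocetinostat, *RARG* 27.5% ± 3.94 and 16.7% ± 2.93, and *RARB* 0.329% ± 0.175 and 2.17% ± 0.865. Of the RXR level, *RXRA* made up 27.3% ± 1.24 and 39.4% ± 1.11 and *RXRB* 72.5% ± 1.38 and 59.3% ± 3.25 (SD, n = 3). The summed RAR level was 1.48 times and the summed RXR level 0.664 times that with DMSO.

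The start of *RARB* inside its gene body is shown because it holds a match to the DR5 type of retinoic acid response element, which is a direct repeat of the receptor half-site with 5 bases between the copies. The sequence is that of the 250 bases before the annotated start site, on the plus strand at chr3:25428013-25428262 (RefSeq, GRCh38.p14), 5′ to 3′, with the repeat in capitals.

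RARB: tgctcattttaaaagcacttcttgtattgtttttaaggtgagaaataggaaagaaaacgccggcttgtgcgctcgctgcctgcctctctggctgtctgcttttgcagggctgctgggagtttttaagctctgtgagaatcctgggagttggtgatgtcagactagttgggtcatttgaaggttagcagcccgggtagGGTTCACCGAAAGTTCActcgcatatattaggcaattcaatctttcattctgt

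Half-sites like AGGTCA, with A or G as the first base and G or T as the third, were searched on both strands in 35116 windows, each running from 250 bases before to 50 bases after a RefSeq start site, and 31 windows (0.0883%) held a DR5. Of the 45 receptors, 40 matched 95 windows. The window of *RARB* was the single receptor window with this repeat, at position -53 from the start site. The half-site AGGTCA alone was found in 15.8% of the receptor windows and in 13.8% of all windows.

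**Figure D4:**
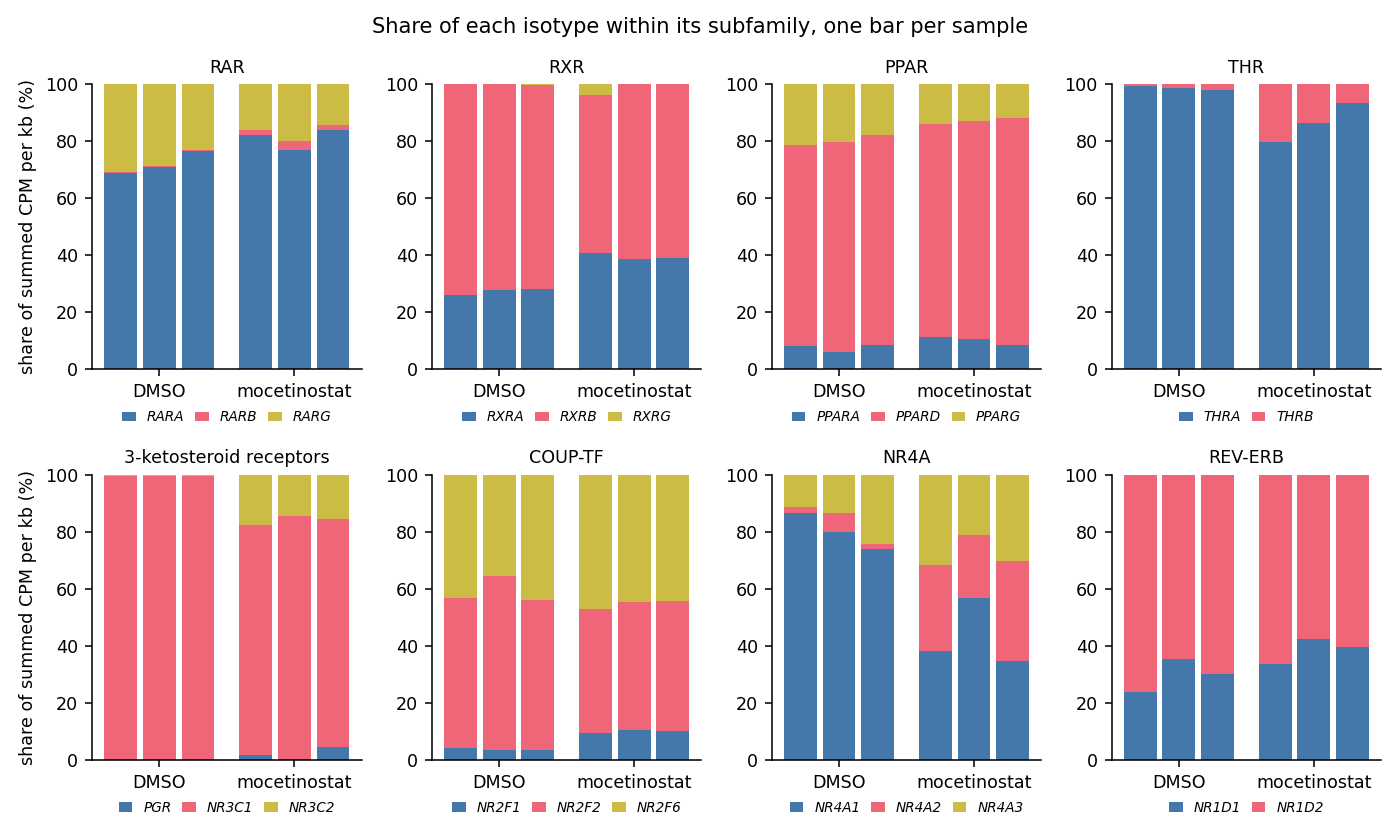
Share of each isotype in the summed per-length level (CPM per kilobase of exon, in percent) of 8 nuclear receptor subfamilies, with a bar for each of the 3 DMSO-treated and 3 mocetinostat-treated samples. Isotypes whose share is larger in every mocetinostat-treated sample than in any DMSO-treated sample include *NR3C2*, *NR4A2*, *THRB*, *RARB*, *NR2F1*, and *RXRA*. *NR3C2*, *NR4A2*, *THRB*, and *RARB* passed the filter only through the mocetinostat-treated samples, so that their larger share was partly fixed in advance.

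Of 26 genes of retinoid handling and response, 19 were tested, 12 (63.2%) were called upregulated and 2 (10.5%) downregulated, where 20.2% and 8.18% of all genes tested were called, and the median log2 fold change was 1.62. Since 6 of the 12, among them *ALDH1A1*, *CRABP1*, and *LRAT*, had passed the filter only through the mocetinostat-treated samples and so had to differ, 6 upregulated genes of 13 remain without them. Over all genes 1809 of 12936 remain in this way. The median includes the 6 genes that had to differ, so that it is no result about the list. *ALDH1A1*, which makes retinoic acid, held 0 counts in every DMSO-treated sample and 11, 6, and 6 counts with mocetinostat, at least 6.27-fold higher against a limit of 3 counts per library. *CRABP1*, a binding protein for retinoic acid, held 0, 1, and 0 counts against 36, 10, and 9, and *LRAT*, which esterifies retinol for storage, held 0, 1, and 0 against 28, 10, and 14. The ratios of their summed counts per library size were 137 for *CRABP1* (95% counting interval 23.6 to 5520) and 129.8 for *LRAT* (22.3 to 5224). *ALDH1A3*, another enzyme that makes retinoic acid and the highest gene of the list in the mean over all 6 samples, fell from 229 ± 7.55 to 79.7 ± 6.30 CPM (log2 fold change -1.53, SE 0.10, adjusted p = 3.36e-23). *MEIS2*, a homeobox gene that responds to retinoic acid, was also called downregulated (log2 fold change -1.01, SE 0.12).

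Of the thyroid hormone receptors, the scarce isotype *THRB* rose strongly and the abundant *THRA* rose slightly. *THRB* (ENSG00000151090, minus strand) had read counts of 3, 2, and 6 with DMSO and of 60, 15, and 13 with mocetinostat, which were 0.269, 0.413, and 0.877 CPM against 11.8, 9.22, and 5.35 CPM. Its log2 fold change was 4.15 (SE 0.51, adjusted p = 8.34e-11), and the treated samples differed among themselves more than those of *NR3C2* did. *THRA* (ENSG00000126351) was at 28.3, 23.3, and 27.2 CPM with DMSO and 31.3, 40.0, and 51.4 CPM with mocetinostat, with a log2 fold change of 0.59 (SE 0.16, adjusted p = 0.0012), which did not pass without mocetinostat replicate 3 (0.37, adjusted p = 0.0745) or with no filter (0.34, adjusted p = 0.128). The share of *THRB* in the per-length level of both isotypes went from 1.30% ± 0.749 to 13.3% ± 6.82 (SD, n = 3), with the lowest treated sample at 6.50% and the highest control at 2.11%.

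*THRB* and *RARB* are neighbors on chromosome 3, next to the REV-ERB gene *NR1D2*, and *THRA*, *NR1D1*, and *RARA* form the matching group on chromosome 17. In GRCh38 coordinates, *NR1D2* lies from 23945286 to 23980617, *THRB* from 24117153 to 24495756, and *RARB* from 24687887 to 25597932 on chromosome 3. Their log2 fold changes were -0.22, 4.15, and 3.04, and their mean levels with DMSO were 79.1, 0.520, and 0.475 CPM. On chromosome 17, *THRA* lies from 40058290 to 40093867, *NR1D1* from 40092793 to 40100589, and *RARA* from 40309180 to 40357643, with log2 fold changes of 0.59, 0.35, and 0.72 and mean levels with DMSO of 26.3, 15.1, and 53.6 CPM. The 2 scarce genes of the chromosome 3 group were higher, and the abundant *NR1D2* beside them did not pass the test. *THRB* and *RARB* passed the filter only through the mocetinostat-treated samples and so had to differ. This contrast is therefore no result about the locus. *THRA* and *NR1D1* overlap on opposite strands over 6.45% of the exon length of *THRA* and 18.0% of that of *NR1D1*, and the strand setting of the counting is not given in the sources used here, so that their reads may be mixed to that extent.

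The NR4A receptors, orphan receptors that are induced within hours by many stimuli, were all higher with mocetinostat, and *NR4A2* and *NR4A3* passed the minimum fold. *NR4A2* (NURR1, ENSG00000153234, chromosome 2 from 156324437 to 156342348, minus strand) had read counts of 2, 4, and 1 with DMSO and of 56, 11, and 25 with mocetinostat, or 0.180, 0.826, and 0.146 CPM against 11.0, 6.76, and 10.3 CPM. Its log2 fold change was 4.84 (SE 0.55, adjusted p = 3.28e-12). *NR4A3* (NOR1, ENSG00000119508, chromosome 9 from 99821855 to 99866891, plus strand) was at 1.35, 2.48, and 2.92 CPM with DMSO and 17.9, 9.84, and 13.6 CPM with mocetinostat, with a log2 fold change of 2.75 (SE 0.34, adjusted p = 9.9e-11). *NR4A1* (NUR77), the abundant member, went from 12.2, 17.4, and 10.4 CPM to 25.0, 30.7, and 18.1 CPM, without overlap but with the highest control close to the lowest treated sample, and its log2 fold change was 0.89 (SE 0.21, adjusted p = 0.000158). *NR4A1* was called upregulated without DMSO replicate 2 (1.06) and without mocetinostat replicate 3 (1.04).

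The makeup of the NR4A group differed between the conditions. *NR4A1* made up 80.3% ± 6.32 of the per-length NR4A level with DMSO and 43.3% ± 11.8 with mocetinostat, *NR4A2* 3.63% ± 2.72 and 29.1% ± 6.49, and *NR4A3* 16.1% ± 6.996 and 27.6% ± 5.78 (SD, n = 3). The summed level of the group was 3.44 times that with DMSO. The ranges of *NR4A3* overlapped in this share, whereas those of *NR4A1* and *NR4A2* did not.

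The region before the *NR4A3* start site is shown because it holds 4 copies of TGACG, the half-site of the cyclic AMP response element (CRE), on either strand. It lies on the plus strand at chr9:99821635-99821884 (RefSeq, GRCh38.p14) and is written 5′ to 3′ with the copies in capitals, where CGTCA is the half-site on the minus strand.

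NR4A3: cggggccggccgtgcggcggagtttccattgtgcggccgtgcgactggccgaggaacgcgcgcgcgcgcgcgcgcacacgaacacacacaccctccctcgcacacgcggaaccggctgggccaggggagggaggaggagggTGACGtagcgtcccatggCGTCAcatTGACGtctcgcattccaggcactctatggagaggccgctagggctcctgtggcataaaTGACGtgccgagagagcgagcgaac

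The copies begin at positions -109, -91, -83, and -25 from the start site. At least 1 such half-site was found in 24.6% of all windows and in 22.1% of the receptor windows, and 4 or more were found in 110 of all windows (0.313%), of which *NR4A3* was the single receptor. These matches are a description of the letters and not of binding.

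The RORs and REV-ERBs, which bind the same response element in clock genes as activators and repressors, moved differently. *RORA* (ENSG00000069667, chromosome 15 from 60488284 to 61229302, minus strand) was at 2.15, 2.48, and 1.75 CPM with DMSO and 11.0, 12.9, and 17.7 CPM with mocetinostat, with a log2 fold change of 2.68 (SE 0.35, adjusted p = 3.06e-10). *RORB*, which is known from retina and brain, had read counts of 4, 0, and 0 with DMSO and of 21, 5, and 5 with mocetinostat, with a log2 fold change of 4.08 (SE 0.75, adjusted p = 2.47e-06). The REV-ERB genes did not pass the test: *NR1D1* was at 15.1 ± 2.24 CPM with DMSO and 19.6 ± 3.44 CPM with mocetinostat (95% interval of the log2 fold change -0.07 to 0.77), and *NR1D2* at 79.1 ± 12.1 and 68.1 ± 0.618 CPM (-0.46 to 0.01), although every mocetinostat-treated sample was below every DMSO-treated sample for *NR1D2*, which passed without DMSO replicate 2 (adjusted p = 0.0292) or 3 (0.0346). The summed per-length level was 8.26 times that with DMSO for *RORA* and *RORB* together, and 0.991 times for the REV-ERBs.

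Of 20 clock genes, all were tested, 5 (25.0%) were called upregulated and 2 (10%) downregulated, close to the 20.2% and 8.18% of all genes tested, and the median log2 fold change was 0.0025. *HLF*, a transcription factor of clock output that passed the filter only through the mocetinostat-treated samples, had read counts of 1, 0, and 3 with DMSO and of 38, 6, and 12 with mocetinostat (log2 fold change 4.85, SE 0.66). *NFIL3*, a repressor of clock output, rose from 25.1 ± 3.08 to 76.9 ± 10.9 CPM (log2 fold change 1.59, SE 0.14), and *NPAS2*, a paralog of *CLOCK*, from 8.46 ± 0.251 to 25.8 ± 4.22 CPM (1.57, SE 0.22). *CLOCK* fell from 101 ± 8.67 to 48.9 ± 6.13 CPM (log2 fold change -1.02, SE 0.12), and *CIART*, a clock repressor, fell from 3.58 ± 0.329 to 1.01 ± 0.743 CPM (-1.99, SE 0.59). *BHLHE40*, the highest gene of the list in the mean over all 6 samples, had a log2 fold change of 0.11 (SE 0.10, adjusted p = 0.338).

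Receptors for fatty acids, oxysterols, and vitamin D had fold changes under 2 in either direction. The fatty acid receptor *PPARA* rose from 18.2, 13.4, and 21.6 CPM to 29.5, 30.7, and 21.8 CPM (log2 fold change 0.61, SE 0.19, adjusted p = 0.00389), with mocetinostat replicate 3 just above the highest control. *PPARA* did not pass with DESeq2 (adjusted p = 0.0639) or with edgeR without DMSO replicate 2 (0.0627), without mocetinostat replicate 1 (0.063), or with no filter (0.174). *PPARD*, the most abundant of the PPARs, was at 57.9 ± 5.30 CPM with DMSO and 69.9 ± 4.27 CPM with mocetinostat and did not pass the test (log2 fold change 0.26, 95% interval 0.02 to 0.51, adjusted p = 0.0572), although the conditions did not overlap and it passed without DMSO replicate 3 (adjusted p = 0.0393). *PPARG*, the regulator of adipocyte differentiation, fell from 43.7, 40.9, and 41.5 CPM to 32.7, 33.2, and 27.5 CPM (log2 fold change -0.43, SE 0.15, adjusted p = 0.00826), though its sign turned to 0.10 with *GAPDH* scaling. As a share of the per-length PPAR level, *PPARG* went from 19.8% ± 1.77 to 12.8% ± 1.02 and *PPARD* from 72.8% ± 1.82 to 77.1% ± 2.49 (SD, n = 3).

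*NR1H2* (LXR beta), the main oxysterol receptor of these cells, fell from 73.5, 91.5, and 91.2 CPM to 52.3, 61.5, and 52.6 CPM without overlap (log2 fold change -0.63, SE 0.12, adjusted p = 7.54e-06). *NR1H3* (LXR alpha) was at 4.92 ± 0.543 CPM with DMSO and 5.47 ± 1.70 CPM with mocetinostat, and its 95% interval of -0.65 to 0.81 allows a change of that size in either direction. The vitamin D receptor *VDR* (ENSG00000111424, chromosome 12 from 47841537 to 47943048, minus strand) rose from 43.5, 49.2, and 54.5 CPM to 77.5, 68.2, and 65.4 CPM (log2 fold change 0.54, SE 0.13, adjusted p = 0.000145). The conditions did not overlap for *VDR*. Exons of *NR1H2* overlap opposite-strand exons over 22.1% of their length, those of *NAPSA*, a gene below the filter.

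Of 18 LXR and sterol-response genes, 12 were tested, 4 (33.3%, against 20.2% of all genes) were called upregulated and 0 (against 8.18%) downregulated by edgeR, with 0 lower at an unadjusted p under 0.05 and 0 called downregulated by DESeq2, and the median log2 fold change was 0.47. *ABCG1*, a cholesterol exporter that passed the filter only through the mocetinostat-treated samples, had read counts of 3, 2, and 6 with DMSO and of 91, 38, and 46 with mocetinostat (log2 fold change 5.27, SE 0.41, adjusted p = 4.88e-19). *MYLIP*, which degrades the LDL receptor, rose from 7.19 ± 1.04 to 29.9 ± 2.66 CPM, and *APOE*, an apolipoprotein of cholesterol transport, from 3.44 ± 0.967 to 12.8 ± 4.44 CPM. *SCD*, the desaturase of fatty acid synthesis and the highest gene of the list, was at 719 ± 42.9 and 1144 ± 41.7 CPM (log2 fold change 0.67, SE 0.07).

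Of 16 genes of vitamin D and thyroid hormone handling, 7 were tested, 4 (57.1%, against 20.2% of all genes) were called upregulated and 0 (against 8.18%) downregulated by edgeR, with 1 lower at an unadjusted p under 0.05 and 0 called downregulated by DESeq2, and the median log2 fold change was 1.68. *CYP2R1* and *CRYM*, 2 of the 4, passed the filter only through the mocetinostat-treated samples and so had to differ. The median includes both genes, so that it is no result about the list. *CYP24A1*, which degrades active vitamin D and is a classic VDR target, rose from 2.54 ± 0.857 to 20.5 ± 5.08 CPM (log2 fold change 3.00, SE 0.29, adjusted p = 9.11e-15). *CYP2R1*, a vitamin D 25-hydroxylase, had read counts of 13, 1, and 1 with DMSO and of 42, 16, and 29 with mocetinostat (3.93, SE 0.50), and *CRYM*, which binds thyroid hormone in the cytosol, 2, 0, and 0 against 65, 14, and 31 counts (ratio per library size 137, 95% counting interval 37.1 to 1148). *TRIP11*, the highest gene of the list, was lower with a log2 fold change of -0.36 (SE 0.14, adjusted p = 0.0227).

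COUP-TFs, orphan receptors with roles in mesenchymal and vascular development, moved in opposite directions. *NR2F2* (ENSG00000185551, chromosome 15 from 96325938 to 96340263, plus strand), the receptor with the highest per-length level with DMSO, fell from a mean of 148 ± 16.0 CPM to 83.0 ± 5.74 CPM, with no overlap and a log2 fold change of -0.83 (SE 0.11, adjusted p = 1.54e-10). *NR2F1*, the scarce member, rose from 6.82, 6.404, and 7.02 CPM to 11.8, 12.9, and 13.6 CPM (log2 fold change 0.90, SE 0.27, adjusted p = 0.00282). The samples of each condition were close together for *NR2F1*, and its share in the group went from 3.75% ± 0.315 to 10.1% ± 0.588. *NR2F6* fell from 43.5, 37.4, and 53.4 CPM to 35.4, 32.6, and 35.8 CPM (log2 fold change -0.37, SE 0.15, adjusted p = 0.0238), with a sign that turned to 0.17 under *GAPDH* scaling. It did not pass without DMSO replicate 3 (adjusted p = 0.171), without mocetinostat replicate 1 (0.0571), or with DESeq2 (0.0901). The summed level of the group was 0.697 times that with DMSO.

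The testicular receptors *NR2C1* and *NR2C2*, which are expressed in many tissues despite their name, were lower or did not pass the test. *NR2C2* was at 99.9, 92.3, and 84.2 CPM with DMSO and 74.2, 56.6, and 73.6 CPM with mocetinostat (log2 fold change -0.41, SE 0.12, adjusted p = 0.00154), and its sign turned to 0.12 under *GAPDH* scaling. Its exons overlap those of the opposite-strand gene *MRPS25* over 60.5% of their length, and *MRPS25* itself had a log2 fold change of -0.35 (adjusted p = 0.00763), so that the 2 genes may share reads. *NR2C1* was at 31.8 ± 3.29 and 30.0 ± 5.49 CPM, with a 95% interval of its log2 fold change from -0.42 to 0.22. Apart from *RARA*, *THRA*, *NR1D1*, *NR1H2*, and *NR2C2*, opposite-strand exons covered over 5% of the length of *RXRB*, *ESRRA*, *NR4A1*, *PGR*, and *NR1I3*.

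*NR2E1*, *NR6A1*, and *NR5A2*, receptors with known roles in neural stem cells, germ cells, and endoderm, rose in this chondrocyte line. *NR2E1* (TLX, ENSG00000112333, chromosome 6 from 108166022 to 108188805, plus strand) had read counts of 0, 1, and 1 with DMSO and of 19, 8, and 6 with mocetinostat, or 3.74, 4.92, and 2.47 CPM after treatment. The ratio of the summed counts per library size was 41.2, with a 95% counting interval from 10.5 to 354, and edgeR gave a log2 fold change of 5.02 (SE 0.81, adjusted p = 1.41e-07). *NR5A2* (LRH-1) had read counts of 5, 3, and 3 with DMSO and of 25, 12, and 5 with mocetinostat, with a log2 fold change of 3.19 (SE 0.59, adjusted p = 2.73e-06). *NR6A1* (GCNF, ENSG00000148200, chromosome 9 from 124517275 to 124771311, minus strand) went from 8.80, 6.404, and 7.75 CPM to 18.3, 18.4, and 11.9 CPM without overlap (log2 fold change 1.06, SE 0.25, adjusted p = 0.000132). Its call was lost without DMSO replicate 2 (0.93), without mocetinostat replicate 1 (0.91), and without mocetinostat replicate 2 (0.98).

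The regions before the *NR2E1* and *NR6A1* start sites are shown because they were the receptor windows that held a full CRE, the palindrome TGACGTCA, which reads the same on both strands. It was found in 1.85% of all windows and in 2.11% of the receptor windows. *NR2E1* is given from the plus strand at chr6:108165772-108166021 and *NR6A1* from the minus strand at chr9:124771312-124771561 (RefSeq, GRCh38.p14), 5′ to 3′ with the CRE in capitals.

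NR2E1: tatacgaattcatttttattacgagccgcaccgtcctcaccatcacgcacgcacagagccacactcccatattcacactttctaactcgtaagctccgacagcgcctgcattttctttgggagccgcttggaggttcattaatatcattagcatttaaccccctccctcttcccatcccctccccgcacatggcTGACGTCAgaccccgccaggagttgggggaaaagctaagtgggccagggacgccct

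NR6A1: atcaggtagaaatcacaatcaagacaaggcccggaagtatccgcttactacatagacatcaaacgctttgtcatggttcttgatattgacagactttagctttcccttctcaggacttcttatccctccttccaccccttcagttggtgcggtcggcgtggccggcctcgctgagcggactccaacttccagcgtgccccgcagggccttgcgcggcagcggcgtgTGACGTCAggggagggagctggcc

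The CRE began at position -56 from the start site in *NR2E1* and at -24 in *NR6A1*.

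The 12 receptors that were not tested held at most 15 counts in any sample. They were *RXRG*, *ESRRB*, *ESRRG*, *PGR*, *NR5A1*, *NR2E3*, the bile acid receptor *NR1H4* (FXR) and its partner in feedback *NR0B2* (SHP), the xenobiotic receptors *NR1I2* (PXR) and *NR1I3* (CAR), and *HNF4A* and *HNF4G*, which act mainly in liver and gut. With more than 3 counts in a sample taken as detected, 35 receptors were detected with DMSO and 42 with mocetinostat in at least 1 sample. The mocetinostat-treated samples were the shallower ones. These counts were not taken over all genes, so that the difference is no result about the receptors in particular. Of all genes tested under mean 10 CPM, 40.1% were called upregulated. *NR0B2*, *NR1I2*, and *NR1I3* were never detected. The 7 receptors detected with mocetinostat alone were *NR3C2*, *NR2E1*, *ESRRB*, *ESRRG*, *NR5A1*, *NR1H4*, and *RXRG*. Of these, *RXRG* had read counts of 0, 0, and 1 with DMSO and of 5, 0, and 0 with mocetinostat. *NR5A1* (SF-1), which drives steroid synthesis in adrenal gland and gonads, lies next to *NR6A1* on chromosome 9 and had read counts of 2, 0, and 1 with DMSO and of 4, 6, and 2 with mocetinostat.

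Coregulators are the proteins that nuclear receptors recruit. Of 27 coregulator genes, all were tested, 3 (11.1%) were called upregulated and 4 (14.8%) downregulated, where 13.0% and 8.89% of all genes at 10 CPM or more were called, and the median log2 fold change was -0.26. *PPARGC1A* (PGC-1 alpha), a coactivator of PPARs and estrogen-related receptors that passed the filter only through the mocetinostat-treated samples, rose from 0.623 ± 0.415 to 22.6 ± 2.87 CPM (log2 fold change 5.05, SE 0.37, adjusted p = 5.68e-20), *NCOA3*, a steroid receptor coactivator, from 235 ± 9.47 to 495 ± 13.3 CPM (1.08, SE 0.08), and *HR*, a corepressor of thyroid hormone and vitamin D receptors, from 39.1 ± 3.09 to 79.5 ± 6.53 CPM (1.05, SE 0.13). The acetyltransferase *CREBBP* fell from 354 ± 26.7 to 135 ± 3.01 CPM (log2 fold change -1.40, SE 0.09, adjusted p = 9.96e-24), the PGC-1 related coactivator *PPRC1* from 166 ± 18.0 to 72.1 ± 6.83 CPM (-1.19, SE 0.11), and the Mediator subunit *MED1*, which contacts liganded receptors, from 229 ± 15.8 to 113 ± 4.15 CPM (-1.02, SE 0.09).

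Of 20 genes of the glucocorticoid response, 18 were tested, 8 (44.4%) were called upregulated and 1 (5.56%) downregulated, where 20.2% and 8.18% of all genes tested were called, and the median log2 fold change was 1.03. *ZBTB16* and *PDK4*, 2 of the 8, passed the filter only through the mocetinostat-treated samples and so had to differ. The median includes both genes, so that it is no result about the list. *ZBTB16* had read counts of 4, 0, and 0 with DMSO and of 19, 4, and 20 with mocetinostat (log2 fold change 4.64, SE 0.71). *PDK4*, a kinase that limits glucose oxidation, rose from 0.877 ± 0.223 to 11.3 ± 0.863 CPM (3.59, SE 0.42), and *TNFAIP3*, an inhibitor of NF-κB signaling, from 24.9 ± 1.56 to 84.9 ± 7.16 CPM (1.79, SE 0.13). *CEBPD* fell from 4.71 ± 0.860 to 1.00 ± 0.908 CPM (-1.88, SE 0.52, adjusted p = 0.0013).

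**Figure D5:**
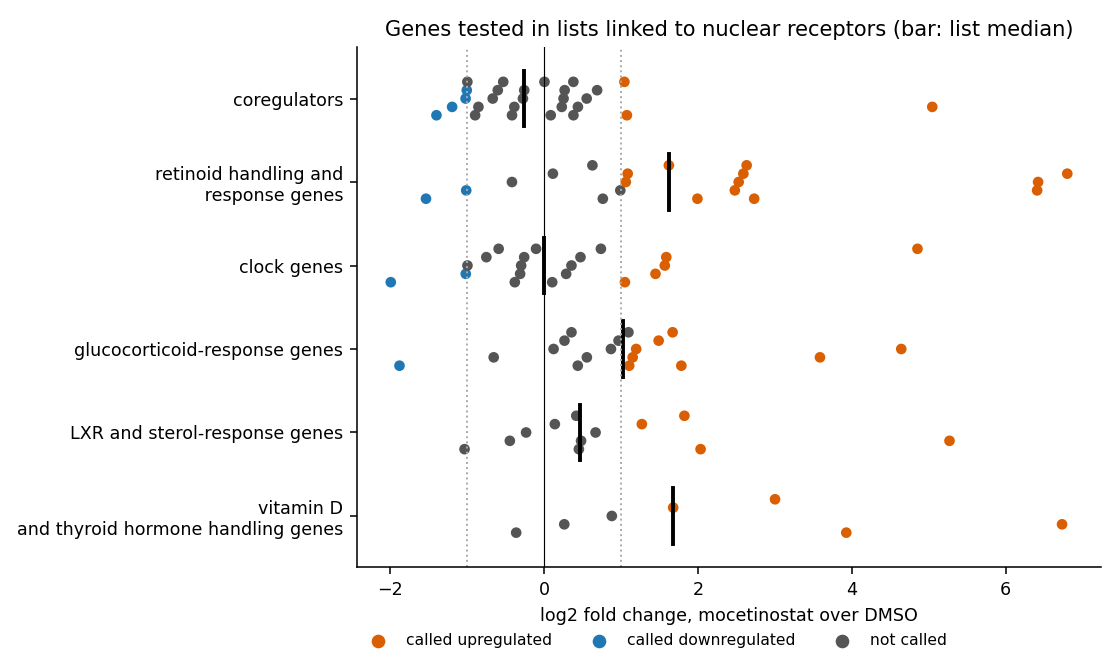
Log2 fold change, mocetinostat over DMSO, of the tested genes in 6 lists linked to nuclear receptors, with a point for each gene, a bar at the median of each list, and dotted lines at the minimum change of a call. The medians run from -0.26 for the coregulators to 1.68 for the genes of vitamin D and thyroid hormone handling, where 7 genes were tested. Each list includes genes that passed the filter only through the mocetinostat-treated samples and so had to differ. The medians are therefore no result about the lists.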

How the data were processed

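RNA-Seq was analyzed in 6 samples of TC28a2 cells, 3 per condition. The deposited values are raw counts per gene, which the authors made by removing ribosomal RNA reads, aligning to GRCh38 with STAR (version 2.6.1d), and counting with featureCounts (1.6.4), without normalization; strand and multimapping settings are not given in the sources used here. In R 4.3.3, edgeR 4.0.16 (TMM factors, filterByExpr with a minimum count of 10) tested treatment with its quasi-likelihood test over 13966 genes. CPM used the TMM factors, and exon lengths and positions came from GENCODE 44, matched by gene identifier. Intervals of count ratios are exact (Clopper-Pearson) and were taken on counts summed over the 3 samples of each condition. They cover counting error only and leave out the spread between samples, which exceeded counting noise. The error is that of reads and not of molecules, since the reads carry no molecular identifiers.

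The receptors and the linked lists were chosen with earlier results of these data known. All receptors are accounted for; from each linked list, up to 3 upregulated and 3 downregulated genes with the largest change and at least 1 CPM in one condition were named, with the gene of the highest mean CPM over the 6 samples, which is not reported here for the coregulators and the glucocorticoid response. Promoter windows came from RefSeq (GRCh38.p14); *NR4A2*, *NR2F6*, *NR0B2*, *HNF4G*, and *VDR* had none.

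The alternatives tried were another test (DESeq2 1.42.0 or glmTreat), another scaling (RLE, *GAPDH*, or total counts), another filter (none, or 10 counts in every sample), a block on replicate number, thinning to 1619344 counts, and leaving out each sample. Fits were tested on simulated data. Replicates of a condition differed by more than counting noise (chi-square per degree of freedom 1.91 to 8.20 in 6 pairs). Total counts were 1619344 to 11031132 per sample.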

Additional observations from a re-analysis of the deposited data

How the results depend on the processing

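Of the 12 receptors called upregulated, 11 kept the call under every alternative in which they were tested, and *NR6A1* lost it with no filter (0.81), with glmTreat (adjusted p = 0.668), and without single samples (0.91 to 0.98). Of the 11, 9 passed the main filter only through the mocetinostat-treated samples. In alternatives with this filter, being tested nearly fixed their call. The fits with DESeq2 and with no filter did not use it. The 9 scarcest rested on few counts: with the libraries thinned to 1619344 counts, 6 of the 12 were tested and called, and with *NR2F1* (1.17) and *NR4A1* (1.198) added 8 receptors were called upregulated. With 10 counts in every sample 3 of the 12 could be tested, and 3 receptors were called, against 16 with DESeq2, 18 with *GAPDH* scaling, 15 with no filter, 11 with glmTreat, and 11 to 14 with each sample left out. The call of *NR3C1* was lost with *GAPDH* scaling (-0.49), 10 counts in every sample (-0.95), glmTreat (adjusted p = 0.661), thinning (-0.90), and without mocetinostat replicate 3 (-0.96), so that 0 receptors were called downregulated in each of these and 3 with no filter, where *RXRB* (-1.15) and *NR2F2* (-1.08) were added. With edgeR's test at its main settings 7 receptors were lower at an adjusted p under 0.05.

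Scaling to *GAPDH*, whose own log2 fold change was -0.53, moved the median of all genes by 0.54, and leaving out the filter by -0.25. Over all genes 2827 upregulated and 1142 downregulated calls (71.2% upregulated) became 4425 and 284 (94.0%) with *GAPDH* scaling, 3201 and 2120 (60.2%) with no filter, and 2069 and 465 (81.6%) with glmTreat. *GAPDH* scaling moved the log2 ratio of the summed receptor level from -0.032 to 0.493 and turned the sign of *PPARG* (0.10), *RARG* (0.34), *RXRA* (0.48), *NR1D2* (0.31), *NR2C1* (0.44), *NR2C2* (0.12), and *NR2F6* (0.17). The remaining changes of sign were in receptors near no change: *RXRA* with 10 counts in every sample (0.024) and thinned (0.033), *NR1D2* thinned (0.015), *ESRRA* with no filter (-0.23) and *NR1H3* with no filter (-0.17) and thinned (-0.034), and, with single samples left out, *ESRRA* (-0.10 to 0.13, with -0.088 and -0.0041 between), *NR1H3* (-0.13 to 0.20, with -0.025 between), and *NR2C1* (-0.19 to 0.018). At an adjusted p under 0.05 alone, *PPARG* did not pass when thinned (0.353), *NR1H2* with *GAPDH* scaling (0.507), *VDR* (0.0897) and *NR2F1* (0.0737) with no filter, or *NR2F6* with 10 counts in every sample (0.0796) and thinned (0.271). The cause was not tested.

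Of the linked lists, coregulators called upregulated fell from 3 to 1 with no filter and 1 with glmTreat, and those called downregulated went from 4 to 2 (RLE), 0 (*GAPDH*), 7 (no filter), 2 (10 counts in every sample), 1 (glmTreat), and 2 (thinned). Retinoid genes called upregulated went from 12 to 7 (10 counts in every sample) and 6 (thinned), and those downregulated from 2 to 1 (RLE), 0 (*GAPDH*), 1 (10 counts in every sample), 1 (glmTreat), and 1 to 2 with each sample left out (1 without DMSO replicate 1 or mocetinostat replicate 2). Clock genes called upregulated went from 5 to 3 (glmTreat), and those downregulated from 2 to 1 (RLE), 1 (*GAPDH*), 0 (10 counts in every sample), 0 (glmTreat), and 1 to 3 with each sample left out (1 without DMSO replicate 1). The downregulated glucocorticoid-response gene was lost (0) with 10 counts in every sample, glmTreat, and thinning. LXR genes called downregulated were 0 to 1 with each sample left out (1 without mocetinostat replicate 1), and vitamin D and thyroid genes called upregulated went from 4 to 1 with 10 counts in every sample.

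Samples with the same replicate number did not deviate together (correlations of 0.0078, 0.012, and -0.016), and not every sample correlated best with its own number. Correlations across numbers lay between -0.028 and 0.026. Values this near to no correlation cannot show whether the samples of a number came from the same experiment. With the replicate number as a block, 12 receptors were called upregulated and 1 downregulated, and over all genes 2798 and 1133.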

Other observations

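Of the 12 receptors below the count filter, 8 held more counts in total with mocetinostat, where the libraries were shallower, and 4 of these passed edgeR's test with no filter. This share was not taken over all genes below the filter. *ESRRG*, a receptor of energy metabolism in heart and muscle, had read counts of 2, 0, and 2 with DMSO and of 6, 12, and 6 with mocetinostat, and *ESRRB*, known from pluripotent cells, 0, 0, and 2 against 5, 1, and 12. With no filter, edgeR gave log2 fold changes of 3.84 for *ESRRG* (adjusted p = 0.000322), 4.01 for *ESRRB* (0.00304), 3.32 for *PGR* (0.000374), and 3.21 for *NR5A1* (0.0455), and DESeq2 gave 4.31, 4.49, 3.66, and 3.72, with adjusted p of 0.000628, 0.00912, 0.00241, and 0.0265. The ratio of summed counts per library size was 14.98 for *ESRRG* (95% counting interval 5.15 to 59.4) and 22.5 for *ESRRB* (5.38 to 200). *NR2E3*, *HNF4A*, and *NR1H4* did not pass either test, and *NR2E3* had read counts of 13, 1, and 5 with DMSO and of 4, 3, and 12 with mocetinostat.

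By subfamily, the summed per-length level with mocetinostat relative to DMSO was 11.7 for NR5A, 7.12 for *NR2E1* and *NR2E3*, and 5.62 for the estrogen receptors. These ratios rest on few counts, and *NR5A1* and *NR2E3* were not tested. *NR5A2*, *NR2E1*, *ESR1*, and *ESR2* passed the filter only through the mocetinostat-treated samples and so had to differ. The NR5A level was 0.0984 ± 0.0151 with DMSO and 1.15 ± 0.807 with mocetinostat (SD, n = 3). The ratio was 2.12 for *NR6A1*, 1.76 for the thyroid hormone receptors, and 1.43 for *VDR* with *NR1I2* and *NR1I3*. It was 1.70 for the untested *HNF4A* and *HNF4G*, 1.14 for the PPARs, and 1.14 for the estrogen-related receptors. It was 0.818 for *NR2C1* and *NR2C2* and 0.694 for the LXRs with *NR1H4*.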
